A study of Homo sapiens with 8 samples.

Results

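RBFOX2 binding was read in the transcripts of 44 genes that encode heterogeneous nuclear ribonucleoproteins (hnRNPs) and other regulators of splicing, out of 32013 genes that could be given a strand. The 44 genes were chosen as a list of RNA-binding protein genes. A peak belonged to a gene when its midpoint lay in the RefSeq span of that gene on the strand of the gene. The study is an eCLIP experiment in HEK293T cells, a human embryonic kidney line grown in culture, with no treatment group and no knockout. It holds 8 libraries, which are 4 RBFOX2 immunoprecipitates (IP) and 4 inputs. Per the labels' protocols, cultured cells received 254 nm light (400 mJ per square centimetre), and the input of a pair was a 2% portion of that sample. In eCLIP, ultraviolet light joins a protein to the RNA it touches, an antibody pulls the protein down, and the attached RNA is read by sequencing. The labels do not say whether the 4 pairs came from separate cultures. The p-values of tests over replicates below therefore measure the spread between these 4 pairs, which may be technical. The deposited p-value of each peak compares an IP with its own input and does not measure that spread.

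RBFOX2 belongs to a family of RNA-binding proteins that recognise the motif GCAUG, mostly in introns beside alternative exons, and turn those exons on or off according to their position. hnRNPs are abundant nuclear proteins that coat new transcripts and often repress exons. Many splicing regulators bind their own transcripts or those of one another, and such binding often adjusts protein output by switching exons that carry an early stop. The transcripts of the 44 genes are therefore a natural place to look for contacts of RBFOX2.

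The authors deposited 1 list of called peaks for each IP library, with each IP already compared to its own input. A called peak carries the log2 fold of IP over input and the −log10 of a p-value. Both are the authors' own values. The lists hold between 267691 and 288305 called peaks, and 96.9% ± 0.0461 (SD, n = 4 replicates) of them had a midpoint in a gene span on the right strand. The p column was above 0 for a larger share of peaks in replicates 2 and 3 than in 1 and 4, for the 44 genes at 35.0%, 46.4%, 41.5% and 34.4% of peaks in replicates 1 to 4. It is 0 for each peak with a fold under input, so it carries no information on depletion. The depth behind a fold is unknown, since no read counts entered this work. Of the markers looked at for the cell line, VIM had 14 to 19 called peaks per list, NEFM 7 to 10 and PAX2 1 to 5. KRT8 had 1 peak in replicate 4 and none in the others, KRT18 had 1 peak and LHX1 had 2 over all lists and both strands, and the markers of blood, liver, red cells, muscle and T cells (PTPRC, ALB, HBB, MYOD1 and CD3E) had 0. RBFOX2 itself had 205 to 218.

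The promoter table of RefSeq (GRCh38.p14) held 73 windows of 300 bases for 39 of the 44 genes. Each window spans 250 bases before and 50 after an annotated transcript start. Of the regions described below that rose above input, 4 touched such a window, in HNRNPM, HNRNPL, HNRNPUL1 and MBNL3, and 1 lay wholly inside it. Of the 4, the HNRNPUL1 region alone kept its call when the mean of all its peaks was tested. That region is in HNRNPUL1, a relative of the nuclear scaffold protein hnRNP U. The stretch of it that lies upstream of the annotated start of a HNRNPUL1 transcript at chr19:41265081 is shown, because it is the only region above input in the 44 genes that a promoter window holds whole. It runs over chr19:41264971-41265080 on the plus strand, and capitals mark the part inside the enriched peak of replicate 4.
HNRNPUL1: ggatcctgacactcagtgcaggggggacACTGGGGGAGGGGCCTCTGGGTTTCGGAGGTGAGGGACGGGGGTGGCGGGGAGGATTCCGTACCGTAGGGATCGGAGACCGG
These 110 bases have a GC content of 68.2% and do not hold GCATG, the DNA spelling of the RBFOX2 motif, which says only that these letters are not in this stretch. On the sense strand, 7 of the 73 member windows held GCATG (9.59%), against 19.6% of all 35116 windows of the table. Counting either strand (GCATG or CATGC, both of which a GCATGC holds), 15 member windows held it (20.5%), against 29.5% of all windows. The windows lie mostly upstream of their transcript start, so these shares do not give the motif content of the transcripts.

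The first question was how often RBFOX2 peaks in these genes passed a customary eCLIP threshold. Enriched here means that the log2 fold and the −log10 p of a peak are both 3 or higher. The 44 genes were densely covered but sparsely enriched. Replicates 1 to 4 had 1402, 1486, 1486 and 1466 called peaks in them, a mean of 1460 ± 39.8 (SD, n = 4) or 0.522% ± 0.00505 of each list. The median gene of the list held 33.4 called peaks, against 12.0 over the 13035 genes with a called peak in each replicate. Enriched peaks numbered 8, 4, 7 and 6 (mean 6.25 ± 1.71, SD, n = 4). The background over all gene spans was 0.836% enriched peaks among called peaks. In the 44 genes the share was 0.430% ± 0.126 and in all other genes 0.838% ± 0.0433 (SD, n = 4 for both). The difference was −0.408 ± 0.132 percentage points and had the same sign in each replicate (two-sided exact sign-flip permutation over 4 replicates, p = 0.13, below which this test cannot go). It depended on the threshold. With a log2 fold of at least 1, it turned to 0.0498 percentage points, with an exact sign-flip p of 0.75.

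The same contrast held when every called peak counted, enriched or not. The mean log2 fold over the called peaks was 0.04 ± 0.05 in the 44 genes and 0.18 ± 0.03 in the other genes (SD, n = 4). The difference of −0.13 ± 0.04 was below 0 in each replicate (two-sided exact sign-flip permutation, p = 0.13). A −log10 p above 0 was nevertheless more common in the 44 genes, at 39.3% ± 5.70 of called peaks against 26.0% ± 8.06 (SD, n = 4). Median peak width was nearly the same, at 49.75 nt and 48.75 nt.

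Enriched peaks sat in 12 of the 44 genes, where 9.23% of all genes with a called peak in each replicate held an enriched peak in any replicate. The 44 genes also held more called peaks each, as given above, and the part of this in the count was not tested. The 32 genes without an enriched peak were HNRNPA0, HNRNPA1, HNRNPA2B1, HNRNPA3, HNRNPC, HNRNPD, HNRNPDL, HNRNPF, HNRNPH3, HNRNPK, HNRNPL, HNRNPLL, HNRNPM, HNRNPR, HNRNPU, HNRNPUL2, MATR3, SYNCRIP, RALY, PCBP1, CELF2, MBNL2, MBNL3, ELAVL1, KHDRBS1, TIA1, TAF15, TARDBP, RBM25, RBM39, ILF2 and DDX17. The enriched peaks of the other 12 genes merged into 15 regions. Of these, 7 were enriched in 1 replicate, 7 in 2, 0 in 3 and 1 in all 4. A called peak was present in all 4 replicates at each of the 15, and 14 had a fold above input in all 4. The regions that missed the threshold in some replicates thus still had called peaks there, at lower folds.

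The region enriched in all 4 replicates lies in RBM10, which encodes an RNA-binding protein that represses exons and is a close relative of RBM5. It covers chrX:47145657-47145789, 502 nt from the start of the gene to the middle of the region. Its log2 folds were 4.75, 4.00, 4.17 and 4.52 in replicates 1 to 4 (mean 4.36 ± 0.34, SD, n = 4), with −log10 p of 6.67, 3.84, 4.40 and 5.53. All 4 values lay well above the threshold, and their spread was small beside their mean. Over all genes, 2.24% held a region enriched in all 4 replicates, which sets the background for 1 of 44. With a −log10 p of at least 5 no gene of the 44 held such a region, and with a log2 fold of at least 1 there were 4, namely CELF1, HNRNPH1, RBM10 and TIAL1. The share of all genes was not computed at these other thresholds, so 2.24% is not their background.

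TIAL1, the gene of the exon-selecting protein TIAR, had 3 enriched regions within its first stretch, centred 787, 951 and 1113 nt from its start. The first of them, chr10:119596101-119596254, read 3.27, 2.63, 4.56 and 2.32. Only replicates 1 and 3 passed both limits there. The farthest read 0.85, 1.68, 0.68 and 4.09, so that replicate 4 stood far above the others. An annotated gene of the opposite strand, LOC105378512, covers the tested region of TIAL1. MBNL1, the muscleblind splicing factor sequestered in myotonic dystrophy, had 1 region at chr3:152447144-152447281 with 3.91, 3.70, 2.12 and 2.91. HNRNPH1, whose protein binds runs of G, had 1 at chr5:179619860-179619954 with 3.93, 2.42, 2.22 and 4.01. Its −log10 p values of 19.7, 9.71, 9.33 and 21.0 were the highest among the 15 regions in each of replicates 1, 2 and 4. CELF1, which opposes MBNL1 on many exons, had 1 at chr11:47552729-47552866 with 3.41, 2.88, 3.55 and 2.74, the most even of these after the RBM10 region.

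EWSR1, the FET family gene joined to other genes in Ewing sarcoma, had 1 region at chr22:29274531-29274691 with 2.11, 4.70, 3.64 and 1.58. Its spread was wide, since replicates 2 and 3 were more than 1 unit above the others. A second RBM10 region, chrX:47180554-47180757, lay near the other end of the gene and read 1.48, 3.65, 3.59 and 2.74. PCBP2, a poly(C)-binding protein gene, had 1 at chr12:53475055-53475184 with 3.32, 2.00, 2.37 and 3.11. QKI, HNRNPAB, RBM5, HNRNPUL1 and DDX5 had 1 region each, enriched in 1 replicate. The lowest was in DDX5, an RNA helicase gene, with 3.25, 1.66, −0.44 and 0.92, the only one of the 15 with a value below input.

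**Figure D1:**
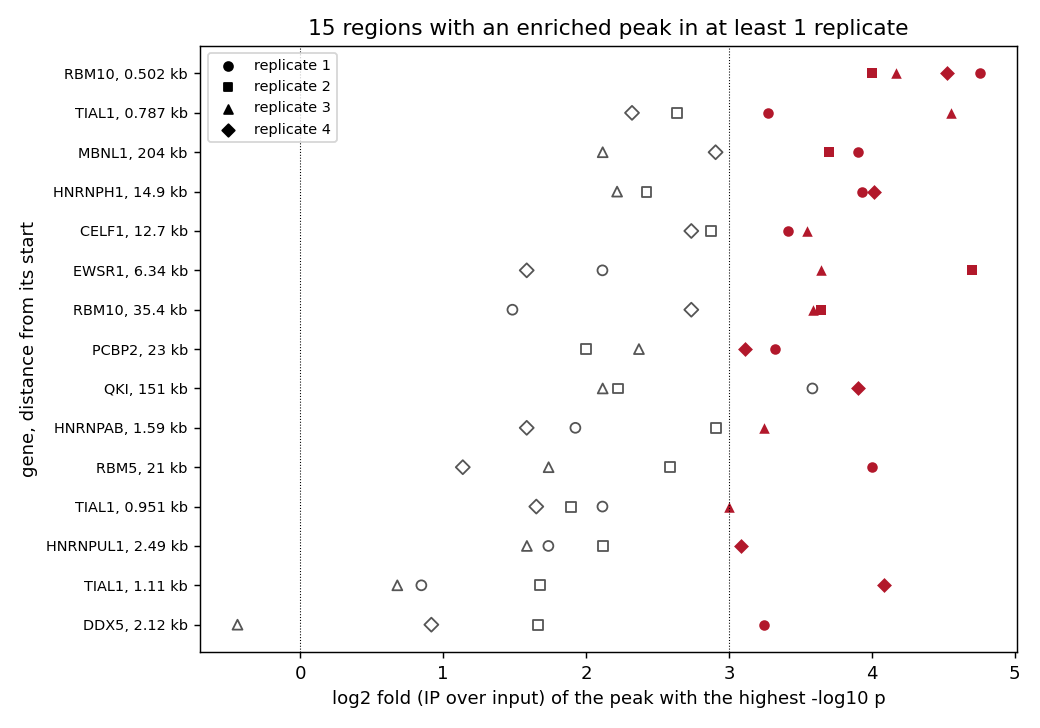
Log2 fold of IP over input (horizontal axis) in each replicate (marker shape) for the 15 member regions with an enriched peak. Regions are ordered by the number of replicates enriched and then by mean, and labelled with the gene and the distance from its start. Filled red markers passed both limits. The RBM10 region 0.502 kb from the gene start is the only one with 4 filled markers, at 4.00 to 4.75, and DDX5 is the only one with a value below 0.

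The next question was in which of these genes the called peaks lay above or below input on average. The gene-level value is the mean log2 fold of all called peaks of a gene in a replicate, tested against 0 with limma over the 6413 genes with at least 10 called peaks in each replicate. Each peak counts equally and RNA outside called peaks does not enter, so the value does not measure the whole transcript. Of the 44 genes, 40 could be tested. HNRNPAB, ILF2, HNRNPA0 and PCBP1 had too few peaks in some replicate. Of the 40, 11 rose above input and 6 fell below it at an adjusted p of 0.05. Over all tested genes 28.3% were above and 9.37% below, so the 27.5% of members above was close to the background. When each replicate was centred on its median gene the background became 22.7% above and 16.7% below, and members became 10 and 7. Weighting peaks by length gave 17 members above and 5 below, and the background became 36.8% above and 5.69% below. The median gene-level value was 0.07 both for the 40 members and for all tested genes. As a description, gene-level values correlated between replicates, with Pearson's r between pairs of replicates from 0.717 to 0.816 over the 40 genes. These genes come from the same libraries, and the share of r that rests on the extremes RBM10 and HNRNPC was not tested.

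**Figure D2:**
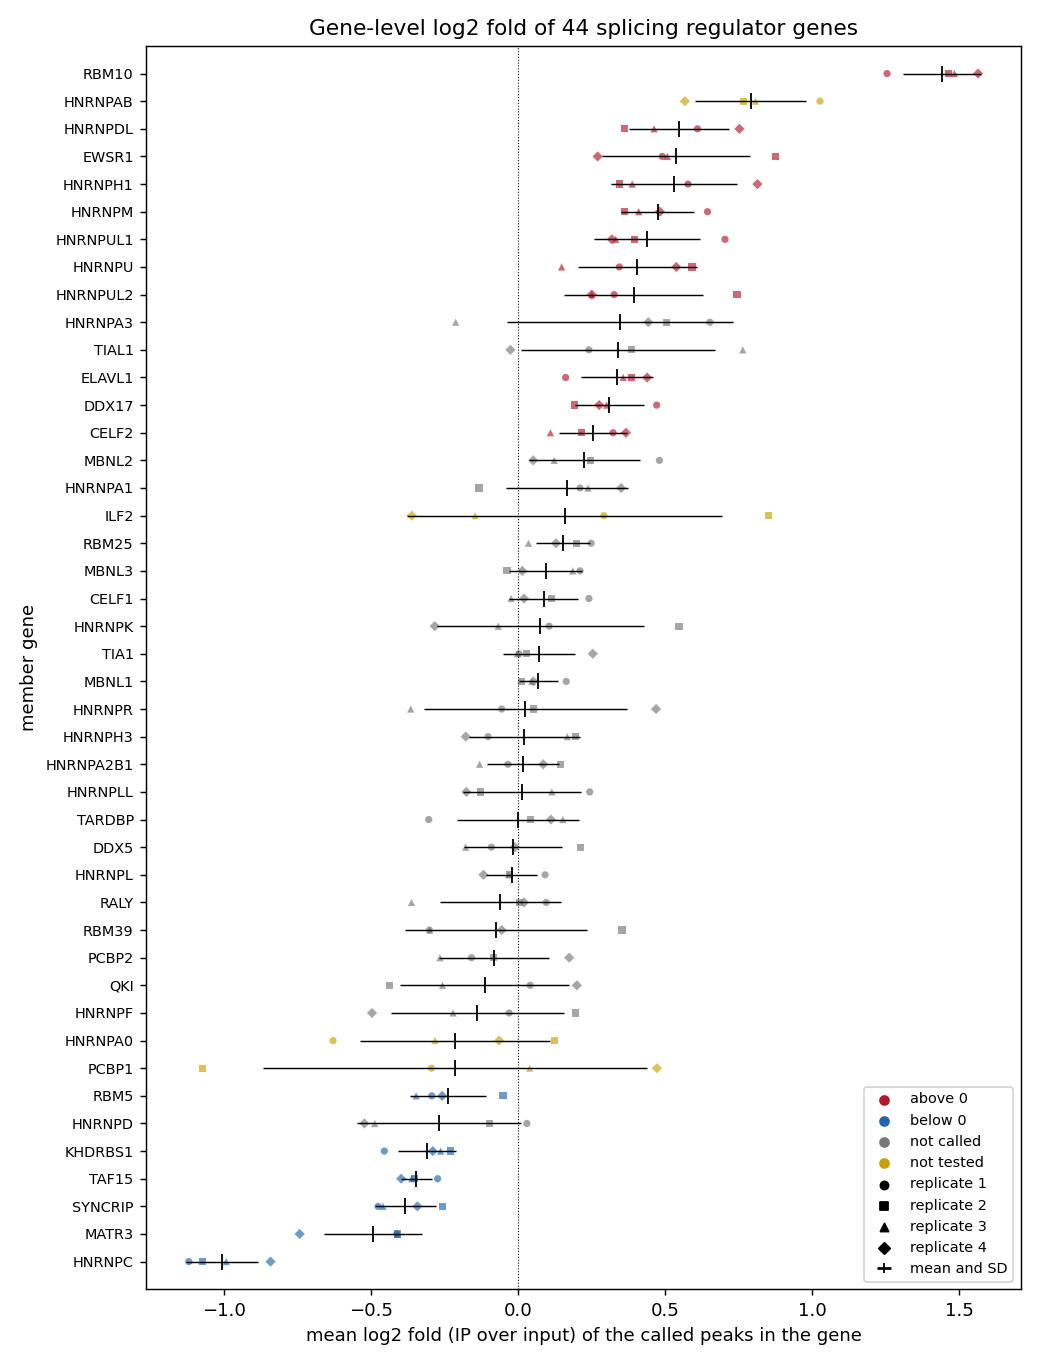
Mean log2 fold of IP over input of the called peaks (horizontal axis) for each of the 44 genes in each of 4 replicates (marker shape), with the mean and SD as black lines; colour gives the limma call. RBM10 at 1.44 and HNRNPC at −1.01 stand at the ends, and their replicate values do not overlap those of any other tested member.

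RBM10 had the highest gene-level value of the list. Its log2 folds were 1.25, 1.46, 1.48 and 1.56 over 27, 30, 33 and 30 called peaks. The mean was 1.44 ± 0.13 (SD, n = 4; limma, adjusted p = 4.6e-06). Taken out of log2, this mean over called peaks is 2.72-fold, on the scale of the deposited folds. Every replicate was above the highest replicate of any other tested member. RBM10 still ranked only 208th from the top among the 6413 genes. Of its called peaks, 76.7% had a log2 fold over 0.5 and 7.50% one under −0.5. Peaks fell in the first few kilobases of the gene and again in its second part, with few between.

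HNRNPDL, an AU-rich element binding protein gene, came second. It read 0.61, 0.36, 0.46 and 0.75 (mean 0.55 ± 0.17, SD, n = 4; limma, adjusted p = 0.0014). EWSR1 followed with 0.49, 0.88, 0.51 and 0.27 (mean 0.54 ± 0.25, SD, n = 4; limma, adjusted p = 0.0042). Replicate values of HNRNPDL and EWSR1 overlap, and those of HNRNPH1 (mean 0.53 ± 0.21) overlap both. These neighbours in the order do not differ beyond their spread. HNRNPM, whose protein binds GU-rich RNA, followed at 0.47 ± 0.12 with all 4 replicates above 0.

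The hnRNP U family was above input in each of its 3 members. HNRNPU, whose protein binds chromatin and RNA in the nucleus, read 0.34, 0.59, 0.15 and 0.54 over 44 to 55 called peaks (mean 0.40, limma adjusted p = 0.0090). HNRNPUL1 had a mean of 0.44 ± 0.18 and HNRNPUL2 one of 0.39 ± 0.24. In HNRNPUL2, replicate 2 stood at 0.74 and the others between 0.25 and 0.33. With peaks in several spans of that strand left out, HNRNPUL2 had too few peaks to be tested. The same held with at least 20 called peaks required, and none of its regions was called. No other family with more than 1 tested member had all of them called in the same direction. The other members above input were ELAVL1 (0.34 ± 0.12), which encodes the mRNA-stabilising protein HuR, the helicase gene DDX17 (0.31 ± 0.12) and CELF2 (0.25 ± 0.12). CELF2 lost its call when replicate 1, 2 or 4 was left out, with adjusted p values of 0.087, 0.061 and 0.10, and when replicates were centred on the median gene (adjusted p = 0.080).

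HNRNPC had the lowest gene-level value. Its protein binds runs of U in introns and keeps cryptic exons out. The log2 folds were −1.12, −1.07, −0.99 and −0.84 over 70, 72, 72 and 71 called peaks (mean −1.01 ± 0.12, SD, n = 4; limma, adjusted p = 2.7e-05). Taken out of log2, this mean over called peaks is an IP over input ratio of 0.497. It is on the scale of the deposited folds, whose scaling is not stated. Among the 6413 genes it was the 12th from the bottom. Of its called peaks, 65.3% had a log2 fold under −0.5 and 9.82% one over 0.5. No replicate value of HNRNPC overlapped one of another tested member. RALY, its close relative, read 0.09, 0.00, −0.36 and 0.02, and did not pass the test (mean −0.06, limma adjusted p = 0.62).

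MATR3, the gene of the nuclear matrix protein matrin 3, came next at −0.41, −0.41, −0.41 and −0.74 (mean −0.50 ± 0.17, SD, n = 4; limma, adjusted p = 0.0021). Part of this value comes from peaks that lie also in other annotated spans. With peaks in several spans of that strand left out, the mean was −0.18 and the adjusted p 0.16, so the call was lost. SYNCRIP, also known as hnRNP Q, read −0.48, −0.26, −0.46 and −0.34 (mean −0.38 ± 0.10, SD, n = 4; limma, adjusted p = 0.0035). TAF15, a FET gene like EWSR1, was at −0.35 ± 0.05, with all 4 replicates between −0.40 and −0.27. KHDRBS1, which encodes the signalling-linked splicing factor Sam68, was at −0.31 ± 0.10. RBM5 was at −0.24 ± 0.13 and close to the threshold (limma, adjusted p = 0.037). It lost its call without replicate 1, 3 or 4, with adjusted p values of 0.11, 0.13 and 0.11, and with genes of 5 or more peaks included (0.063), and turned to 0.07 with length weighting.

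The remaining 23 tested members passed in neither direction, although 7 of them (CELF1, HNRNPA1, HNRNPA3, HNRNPD, MBNL2, RBM25 and TIAL1) did under at least 1 alternative. TIAL1 went from 0.34 to 0.79 with length weighting (limma, adjusted p = 0.0034), and HNRNPA3 from 0.35 to 0.53 without replicate 3 (limma, adjusted p = 0.0041). Their means ran from −0.27 in HNRNPD to 0.35 in HNRNPA3. Of the 40, 14 had all 4 values above 0, 6 had all 4 below 0 and 20 had mixed signs. The hnRNP A/B group, whose proteins bind UAG motifs and repress exons, had no called member, with HNRNPA1 at 0.17 ± 0.21 and HNRNPA2B1 at 0.02 ± 0.12. Muscleblind genes were likewise uncalled at the gene level, with means from 0.07 in MBNL1 to 0.22 in MBNL2.

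Gene-level values of close relatives could lie apart or together. The pairs given here were picked with their values known, so the gaps are a description and carry no test. RBM10 exceeded RBM5 by 1.68 ± 0.17 (SD, n = 4), with replicate differences from 1.52 to 1.83. RALY exceeded HNRNPC by 0.95 ± 0.26, and EWSR1 exceeded TAF15 by 0.88 ± 0.25. HNRNPDL exceeded HNRNPD by 0.82 ± 0.37, with replicate differences from 0.46 to 1.28. HNRNPLL and HNRNPL differed by 0.04 ± 0.13 with mixed signs, and the 3 hnRNP U genes, at 0.39 to 0.44, lay within their spread.

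Coverage by called peaks, given per kilobase of span, varied widely. DDX5 had the most, with 4.18, 4.30, 4.76 and 4.06 called peaks per kb, followed by HNRNPA1 at 3.54 ± 0.49 and HNRNPU at 3.44 ± 0.32 (SD, n = 4). These are short spans. CELF2 had the fewest, at 0.027, 0.032, 0.023 and 0.029 per kb over a span of 874 kb, followed by MBNL3 at 0.112 ± 0.022 and MBNL2 at 0.134 ± 0.025. HNRNPC (1.18 ± 0.02) and RBM10 (0.72 ± 0.06), at opposite ends in fold, lay between these extremes.

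The last question was where in each transcript signal rose or fell. All called peaks of the 4 lists were merged, and regions called in each of the 4 replicates were kept. The value of a region in a replicate is taken from whichever of its peaks had the largest −log10 p, so these regions can be wider than the enriched ones above. Because the p is 0 under input, this choice favours a peak above input wherever a region holds several peaks. In some replicate, 27.3% of all regions and 40.6% of those in the 44 genes held several. Among 49493 such regions, limma placed 21.1% above input and 1.81% below. The 44 genes held 515 of them. Of these 67 (13.01%) were above and 19 (3.69%) below, and the median region mean was 0.25, against 0.50 over all regions. With the mean of all called peaks of a region in place of 1 peak, an alternative added after seeing the data, 51 member regions were above (9.90%) and 21 below (4.08%), against 9403 above and 897 below of all 49493. These include 51 of the 67 and all 19 of those below, and the member median became 0.12. Those that lost their call are given below where they are described. The region calls also need all 4 replicates. Leaving out replicate 1 or 4 left 0 above and 0 below, with limma p values under 0.05 before adjustment for 110 above in each case and 45 and 41 below. Leaving out replicate 2 left 3 above and 1 below, and leaving out replicate 3 left 8 and 3. The smallest adjusted p in these fits lay between 0.0484 and 0.0507, just at the threshold.

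At least 1 region above input was found in 32 of the 44 genes and at least 1 below in 11, with 9 genes having both and 10 neither. Of the 9876 genes with a tested region, 36.9% held one above and 7.10% one below. The 44 genes had a median of 11 tested regions and all genes one of 3, and the part of this in the counts was not tested. As means of all peaks, 26 of the 44 genes held a region above and 11 one below, against 33.2% and 7.07% of genes. The regions above had means from 0.96 to 4.36 (median 1.70) and a median width of 136 nt. Those below had means from −3.71 to −0.94 (median −1.58). Among the 67 above, 14 (20.9%) lay in the first 10% of their gene, as did 80 (15.5%) of all 515. Regions with a mean of at least 3 numbered 6, in RBM10, TIAL1, MBNL1, HNRNPH1, CELF1 and EWSR1. As the mean of all peaks, RBM10 (3.42) and EWSR1 (3.01) stayed there, while TIAL1 became 2.19, MBNL1 2.66, HNRNPH1 1.61 and CELF1 2.30, each still above input. Against a log2 fold of 1 in place of 0, 9 regions were above and 2 beyond −1.

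**Figure D3:**
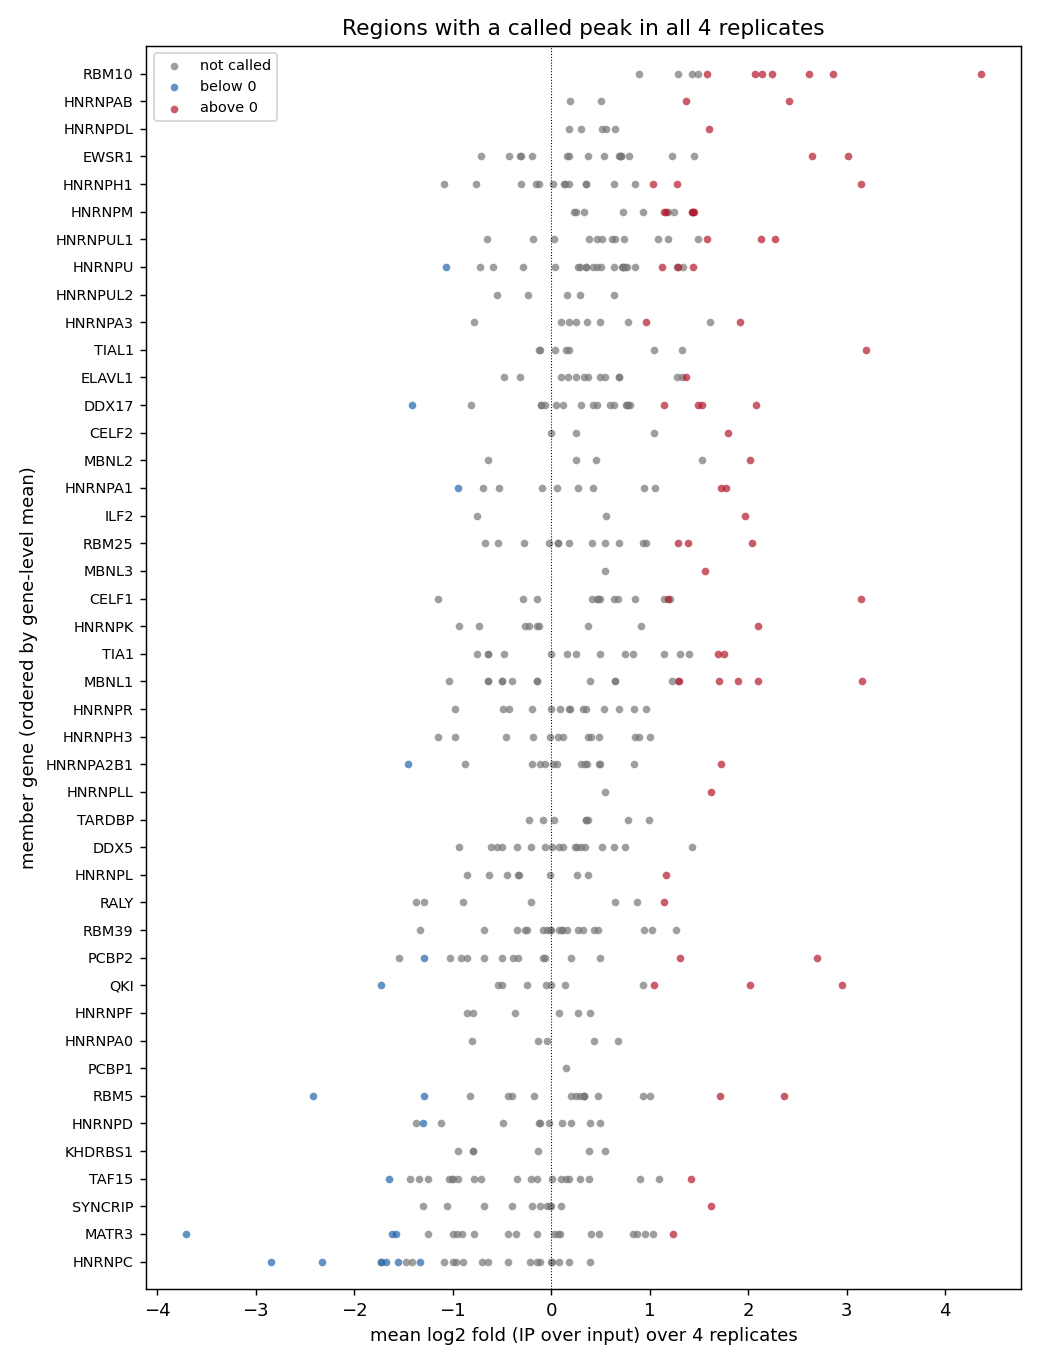
Mean log2 fold of IP over input over 4 replicates (horizontal axis) of each of 515 regions called in every replicate, 1 line per gene in the order of the gene-level mean; red regions were above 0 and blue below 0 by limma. RBM10 has 7 of 11 regions above and none with a negative mean, while HNRNPC has 6 of 24 below and 20 with a negative mean.

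RBM10 had 7 of its 11 regions above input, and none of the 11 had a negative mean. Of these, 4 lay within 1305 nt near the start of the gene, chrX:47145657-47146961, with means from 2.06 to 4.36. Another 2 lay together over chrX:47180554-47181141, with means of 2.86 and 1.58. Signal in RBM10 was thus raised near the start and in the last part of the span. MBNL1 showed a tight group although its gene-level mean was close to 0. Its 4 regions over chr3:152446581-152447543, within 963 nt 203004 to 203875 nt into the gene, had means from 1.70 to 3.16. In that gene 8 of 18 regions had a negative mean, but none was called below input. What these regions contribute to the gene-level value was not tested. HNRNPH1 had 3 such regions over chr5:179619212-179620873 with means from 1.04 to 3.15. As means of all peaks the outer ones became 0.74 (limma, adjusted p = 0.11) and 0.85 (0.064) and lost their calls. An annotated gene of the opposite strand, LOC128966623, covers all 3 of them.

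Groups of regions above input within 1000 nt of one another numbered 14, in 12 genes, and held 34 of the 67. Such groups were not counted over all genes, so this count has no background. The member genes also had more tested regions each, as given above, and the part of this in the count was not tested. In HNRNPU, 3 regions above input lay 541 to 1248 nt from the gene start, with means from 1.12 to 1.44. A region farther in, chr1:244861687-244861723, was below input at −1.07 ± 0.28 (SD, n = 4). EWSR1 had a pair at 2.65 and 3.01, and QKI, a STAR family regulator of RNA circles and exons, a pair at 2.02 and 2.96 150591 and 151112 nt from its start. QKI also held a region below input farther on at −1.73 ± 0.99. DDX17 had 2 pairs, with means from 1.15 to 2.08. The pair of it nearer the gene start lost both calls as means of all peaks, at 0.46 and 1.15 (limma, adjusted p = 0.22 and 0.051). HNRNPM differed from these, since its 5 regions above input were spread over the gene, from 69 to 40683 nt from the start, and had similar means of 1.14 to 1.45. The region 69 nt from the start lost its call as the mean of all peaks (1.21; limma, adjusted p = 0.053), as did the 541 nt region of HNRNPU (0.90; 0.056) and the PCBP2 region that holds its enriched peaks, which went to 1.20 (0.14).

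HNRNPC held 6 of the 19 regions below input and none above. They ran from chr14:21211053-21211152 near the end of the transcript to chr14:21260602-21260667, and their means lay between −2.85 and −1.33. The lowest, chr14:21249175-21249272, read −2.17, −2.17, −3.58 and −3.46 (mean −2.85 ± 0.78, SD, n = 4; limma, adjusted p = 0.0090). All 4 replicates were clearly below input. Of its 24 regions 20 had a negative mean, with a median of −0.93. The low value was therefore spread along the transcript and did not come from a single site.

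MATR3 differed in this. Its lowest region, chr5:139278881-139278966, read −4.03, −3.22, −3.17 and −4.42 (mean −3.71 ± 0.61, SD, n = 4; limma, adjusted p = 0.0047), the lowest of all 515. The midpoint of this region lies also in the spans of the noncoding gene SNHG4 and the small nucleolar RNA gene SNORA74A, on the same strand. A second region at −1.62 ± 0.23 lies in SNHG4 and SNORA74D. Reads from the host transcript and from the small RNAs cannot be told apart in these lists. The remaining region, chr5:139307428-139307577, lies in MATR3 alone and had a mean of −1.58 ± 0.88. MATR3 also held 1 region above input, at 1.24 ± 0.40 near its end, which lost its call as the mean of all peaks (0.90; limma, adjusted p = 0.075).

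**Figure D4:**
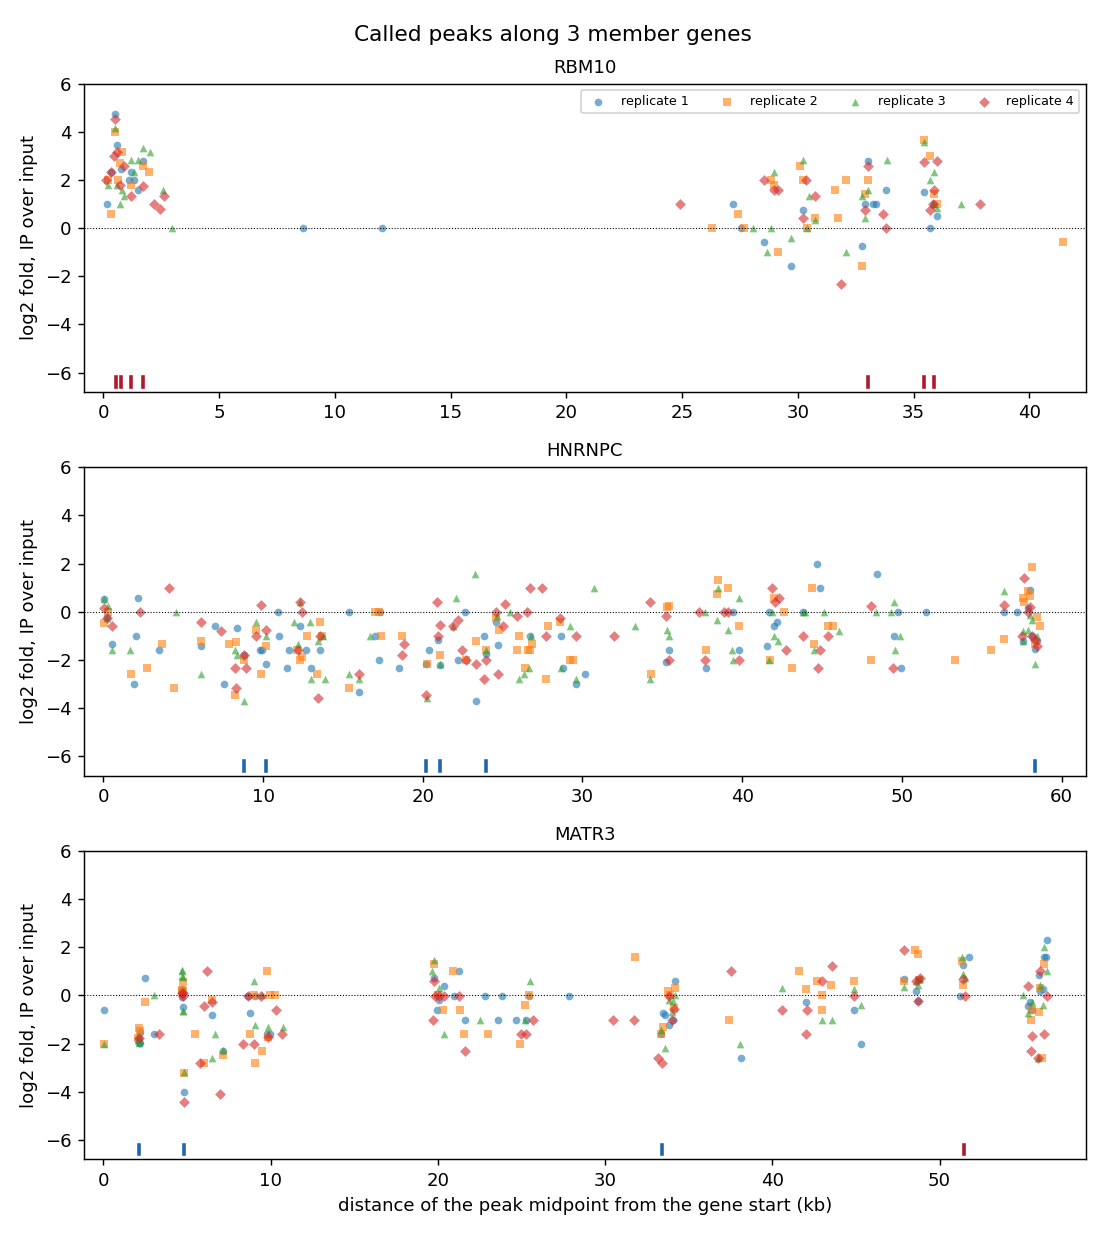
Log2 fold of IP over input (vertical axis) of every called peak of RBM10, HNRNPC and MATR3 against the distance of its midpoint from the gene start in kb, by replicate (colour and shape); ticks at the base mark regions called above (red) or below (blue) input. RBM10 peaks above 4 sit at the gene start, HNRNPC peaks lie mostly under 0 along the whole span, and the deepest MATR3 peaks lie 4822 nt from the start.

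RBM5 held regions of both kinds, which its gene-level mean of −0.24 does not show. Its region enriched in replicate 1, chr3:50109869-50109979, had a mean of 2.37 ± 1.24 (SD, n = 4), and another stood at −2.42 ± 1.30. HNRNPA1, HNRNPA2B1, PCBP2 and TAF15 likewise had regions on both sides of input (in TAF15 the upper one became 0.78 as the mean of all peaks; limma, adjusted p = 0.11), as HNRNPU, DDX17, QKI and MATR3 did. In HNRNPD the only called region was below input, at −1.30 ± 0.26. HNRNPK, whose protein binds C-rich RNA through KH domains, held 1 region above input at 2.10 ± 0.63, although its gene-level mean passed in neither direction. RBM25, which encodes a factor that promotes a shorter form of an apoptosis gene, held 3 with means from 1.28 to 2.04. CELF2 had 1 region at 1.79 ± 0.24, 805251 nt from the gene start, which was 1.09 as the mean of all peaks and still above input. The 10 genes with no called region were HNRNPA0, HNRNPF, HNRNPH3, HNRNPR, HNRNPUL2, PCBP1, KHDRBS1, TARDBP, RBM39 and DDX5. HNRNPUL2 and KHDRBS1, which had gene-level calls, are among them, with 5 and 6 regions that could be tested.

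For comparison, the same counts were taken over a list of 46 other splicing regulators that includes SR proteins, PTB proteins and U2AF. Of them 40 could be tested, with 16 above input, 6 below and a median of 0.05. A region enriched in all 4 replicates was found in 5 of the 46, against 1 of the 44. Of their 610 regions, 127 (20.8%) were above input and 9 (1.48%) below, close to the 21.1% and 1.81% of all regions. The difference between the lists was not tested.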

How the data were processed

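RBFOX2 eCLIP was measured in 4 IP libraries and 4 inputs of HEK293T cells. Per the submitters' processing notes, UMI-tools 1.1.1, cutadapt 3.2 and STAR 2.7.7a were used with hg38 (GRCh38.p13); the peak caller and its filters are not given in the sources used here. The deposited lists have no header. Of the 2 deposited values per peak, the earlier was taken to be a p-value as −log10 (0 or more, up to 400) and the later a log2 fold of IP over input, from their ranges. How IP and input were scaled is not stated, and counts and depth were not used here.

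Peaks, converted to 1-based coordinates, were assigned by midpoint to RefSeq gene spans (GRCh38.p14, which keeps the chromosome coordinates of p13). Strand came from the RefSeq promoter table for 39 members. For 5 (HNRNPA1, QKI, ELAVL1, TAF15 and RBM39) it was the strand with at least 90% of at least 10 called peaks, and all of their peaks were on it. For protein-coding genes with both, this rule gave the table's strand in 97.4% of 8561. Exons and introns were not analysed here. Peaks were merged by at least 1 nt of overlap on the same strand. Region and gene means were tested against 0 with limma 3.58.1 in R 4.3.3 (intercept only, eBayes, two-sided, Benjamini-Hochberg over the whole table, threshold 0.05). The fit was also run on simulated normal values with known shifts that were larger than many of the means called here. That run does not show how the fit behaves for smaller means. Differences between members and other genes, in enriched share and in mean fold of called peaks, used exact sign-flip permutations in Python 3.11.15. The gaps between paralogue pairs were not tested.

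All members were counted. Values per replicate are given for members with a region enriched in at least 3 replicates, for the 3 highest and 3 lowest gene-level means, and for the 3 with most and fewest called peaks per kb; members without an enriched peak are named. Others that are named, and the paralogue pairs, were singled out after their values were seen. The members, lists and tests were chosen with earlier results of these data known. Alternatives varied the thresholds, the assignment of peaks, the peak minimum, the weighting, the centring and the replicates; the mean of all peaks of a region was added after seeing the data.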

Additional observations from a re-analysis of the deposited data

Results flagged for a closer look

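Replicate values were looked at in 95 groups of 4. These were called peaks and gene-level means of the 40 tested members, and log2 folds of the 15 regions with an enriched peak. Of the 95, 6 held a replicate far from the other 3, which is 6.32%. That is close to the 1 in 20 that chance gives for normal values. Counts of called peaks are whole numbers with ties, so this rate need not hold for them. In HNRNPUL1, replicate 4 had 39 called peaks and each of the others 31. In TIAL1, replicate 1 had 20 called peaks and the others 25 or 26. In KHDRBS1, replicate 3 had 24 and each of the others 27. In the gene-level means, replicate 2 of HNRNPUL2 stood at 0.74 with the others between 0.25 and 0.33. Replicate 4 of TIA1, the TIAL1 relative, stood at 0.25 with the others between −0.003 and 0.03. Replicate 4 of MATR3 stood at −0.74 with the others at −0.41.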

How the results depend on the processing

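With a −log10 p of at least 5, enriched peaks per replicate in the 44 genes fell from a mean of 6.25 to 3.25, and genes with a region enriched in all 4 replicates from 1 to 0. With a log2 fold of at least 1 they rose to 17.25 and 4, and the difference in enriched share turned from −0.408 to 0.0498 percentage points. The share of all genes with a region enriched in all 4 replicates was not computed at these thresholds. Without a limit on p and at a minimum log2 fold of 4, the mean was 2. Tested against a log2 fold of 1, regions above fell from 67 to 9 and below from 19 to 2. Leaving out each replicate in turn gave 0 to 8 regions above and 0 to 3 below; a smaller set of replicates lowers the residual degrees of freedom. Genes above rose from 11 to 17 with length weighting, as all tested genes did from 28.3% to 36.8%, and the cause was not tested. RBM5 reversed to 0.0729 there. Of the 17 called members, 14 stayed past the threshold under each alternative that could be run, and CELF2, MATR3 and RBM5 did not. Among the 14, HNRNPUL2 could not be run with peaks in several spans left out. HNRNPUL2 and HNRNPDL could not be run with at least 20 called peaks. Of 389 gene-level values under alternatives, 365 kept their side of the threshold with no called value changing sign. Of these, 28, called in neither fit, changed sign. Of the rest, 14 gained a call, 9 lost one and 1 reversed. No paired analysis was possible because there is no second group to block against: the deposited ratios already pair each IP with its input, so the tests above are over 4 pairs. Unknown depth limits all folds of low peaks.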
